A study of Mus musculus with 12 samples.

Results

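The smooth muscle contractile genes described here are Acta2, Actg2, Myh11, Tagln, Cnn1, Des, Smtn, Lmod1, Mylk and Pcp4, 10 of 20720 genes tested. They were taken by name: every array probe that the scanner files name for one of them was used, which gave 17 probes. All 17 passed the filter on dim probes and none was saturated. The whole forestomachs of wild-type C57BL/6J adults were sampled, and their RNA was hybridised in Cy5 to 12 Agilent two-colour mouse arrays against a commercial pool of mouse RNA in Cy3, the same reference on each array. The mice drank 20% alcohol in supersaccharin for 4 weeks, 15% alcohol for 40 weeks, with no saccharin named, or supersaccharin with 0% alcohol as controls. Each group had 4 samples. The 40-week samples had no controls of their own time point, so every comparison uses the same 4 control samples. Nothing in the labels says that samples of a group came from separate mice. Each p-value therefore sets a group difference only against the spread of these samples, and that spread may be technical.

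Smooth muscle shortens when calcium-bound calmodulin activates myosin light chain kinase, the product of Mylk, which phosphorylates the light chains of the smooth muscle myosin whose heavy chain Myh11 encodes. That myosin pulls on actin filaments built from the alpha and gamma smooth muscle actins, encoded by Acta2 and Actg2, the gamma form being prominent in the gut wall. Tagln (transgelin), Cnn1 (calponin 1) and Smtn (smoothelin) bind these filaments, Lmod1 (leiomodin 1) starts new ones, Des (desmin) forms the intermediate filaments that tie the apparatus together, and Pcp4 encodes a small regulator of calmodulin. In the stomach most of these transcripts belong to the muscle layers of the wall, and vessels carry many of them too. In whole tissue, fewer smooth muscle cells and less RNA per cell cannot be told apart.

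Of the 17 probes, 4 have ends that lie farther apart in the genome than the 60 bases of the probe, so they cross an intron and match the spliced transcript. They belong to Acta2, Actg2, Myh11 and Des. The Myh11 and Des probes are shown because the values of these genes rest on them, and the Acta2 probe because it gave another answer than the main Acta2 probe did. They are written 5′ to 3′ with positions on mouse build mm9, as the files give them.
Acta2, chr19:34322995-34326249, minus strand: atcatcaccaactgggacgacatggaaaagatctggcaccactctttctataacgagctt
Myh11, chr16:14195223-14198147, minus strand: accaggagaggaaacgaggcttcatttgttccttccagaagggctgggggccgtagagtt
Des, chr1:75363404-75363629, plus strand: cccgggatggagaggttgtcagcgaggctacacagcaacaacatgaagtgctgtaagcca
Further main probes lie at chr19:34316060-34316119 for Acta2, chr9:45738097-45738156 for Tagln, chr9:21913058-21913117 for Cnn1, chr11:3420834-3420893 for Smtn, chr1:137263311-137263369 for Lmod1, chr16:34995162-34995221 for Mylk and chr16:96747241-96747300 for Pcp4, also on mm9. Actin coding sequences are alike, and a coding probe for one actin may also bind transcripts of another, so the actin values are uncertain in this respect.

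Serum response factor drives many of these genes with its partner myocardin by binding a 10-base DNA element, the CArG box. The RefSeq promoter table (build GRCm38.p6) held 7 of the 10 genes, with 250 bases before and 50 after the start of each. An exact CArG box was found in 0 of these 7 promoters and in 1.63% of all 32851. With at most 1 base off, a box stood in 3 of the 7 (42.9%) and in 21.1% of all promoters. The pattern reads the same on both strands. The 250 bases upstream of these 3 genes follow 5′ to 3′ on the gene's strand, with the near boxes in capitals and positions on GRCm38.p6.
Acta2, chr19:34255374-34255623, minus strand: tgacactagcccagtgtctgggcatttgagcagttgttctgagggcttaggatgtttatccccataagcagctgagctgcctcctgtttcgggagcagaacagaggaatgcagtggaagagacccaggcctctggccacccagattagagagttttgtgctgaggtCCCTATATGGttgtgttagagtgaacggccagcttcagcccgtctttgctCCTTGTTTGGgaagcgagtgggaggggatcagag
Lmod1, chr1:135324563-135324812, plus strand: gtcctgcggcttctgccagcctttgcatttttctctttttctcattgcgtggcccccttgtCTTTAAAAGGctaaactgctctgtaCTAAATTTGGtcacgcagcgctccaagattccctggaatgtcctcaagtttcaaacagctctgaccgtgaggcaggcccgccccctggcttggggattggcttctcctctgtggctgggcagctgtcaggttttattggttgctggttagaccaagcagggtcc
Pcp4, chr16:96467356-96467605, plus strand: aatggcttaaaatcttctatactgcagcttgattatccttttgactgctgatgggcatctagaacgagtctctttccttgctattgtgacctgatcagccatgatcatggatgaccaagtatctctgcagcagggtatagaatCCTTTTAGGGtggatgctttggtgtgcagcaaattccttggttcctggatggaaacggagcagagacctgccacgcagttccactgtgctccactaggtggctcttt
In Acta2 the near boxes lie at -84 to -75 and at -34 to -25 from the gene's start, in Lmod1 at -189 to -180 and -164 to -155, and in Pcp4 at -107 to -98. These are descriptions of the letters only, and the windows of Des, Cnn1, Smtn and Mylk held no such letters.

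After 4 weeks of 20% alcohol the log2 ratio of forestomach to reference RNA was lower for all 10 genes, and 3 of them fell by the test, Cnn1, Myh11 and Des. The median change of the 10 was -0.77, beside -0.02 over all genes. Each array was background-corrected and normalised by loess, limma was fitted to all genes of the 8 arrays with scanner files, and a gene was called at a Benjamini-Hochberg adjusted p under 0.05. Such calls for lower ratios took 0.806% of all genes. In 7 of the 10 genes every 4-week array lay below every control array, which was so for 6.28% of all genes. The control arrays may all have been on a single slide and the 4-week arrays on another, so slide and group cannot be told apart.

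Cnn1, whose product binds actin and calmodulin and damps the myosin ATPase, had log2 ratios of 5.86, 4.44, 5.62 and 5.18 on the 4-week arrays, against 7.33, 7.75, 7.53 and 6.90 on the control arrays. The groups lay more than 1 log2 unit apart at their nearest values. The change was -2.10 ± 0.31 (log2 ± SE, n = 4 each), 4.29-fold lower, with a limma adjusted p of 0.0349. Myh11 had 4.75, 4.06, 5.61 and 4.80 on the 4-week arrays, against 6.30, 6.31, 6.61 and 6.34 on the control arrays. The 4-week values were spread much more widely than the control values (SD 0.635 and 0.146), yet did not reach them. Myh11 was 3.00-fold lower (-1.59 ± 0.28, limma adjusted p = 0.0437). Des had 4.56, 3.93, 4.91 and 4.36 on the 4-week arrays, against 5.57, 5.74, 5.74 and 5.68 on the control arrays. Again only the 4-week arrays varied, and Des was 2.37-fold lower (-1.24 ± 0.19, limma adjusted p = 0.0349).

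The other 7 genes missed the threshold. Lmod1 came nearest, at -0.91 ± 0.18 (limma adjusted p = 0.0569), with 3.40 to 4.25 on the 4-week arrays and 4.78 to 4.95 on the control arrays. Pcp4, Acta2 and Tagln also had groups that did not overlap, at -0.81 ± 0.22, -0.73 ± 0.19 and -0.69 ± 0.22 (limma adjusted p = 0.117, 0.105 and 0.151). The groups overlapped for Actg2 (-0.62 ± 0.26), Mylk (-0.60 ± 0.26) and Smtn (-0.28 ± 0.21), with limma adjusted p of 0.263, 0.273 and 0.513. In Actg2 and Mylk the overlap came from control replicate 1, at 2.99 and 3.59, while the other 3 controls held 3.82 to 4.04 and 4.46 to 4.68. Control replicate 1 was the lowest control in 8 of the 10 genes, and 4-week replicate 2 the lowest 4-week array in 8. The 3 calls were lost in most repeats of the fit: 0 members were called after any single array was left out, except 4-week replicate 3, without which Myh11 and Des were called. The changes themselves stayed from -2.30 to -1.82 for Cnn1, -1.85 to -1.34 for Myh11 and -1.40 to -1.07 for Des.

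**Figure D1:**
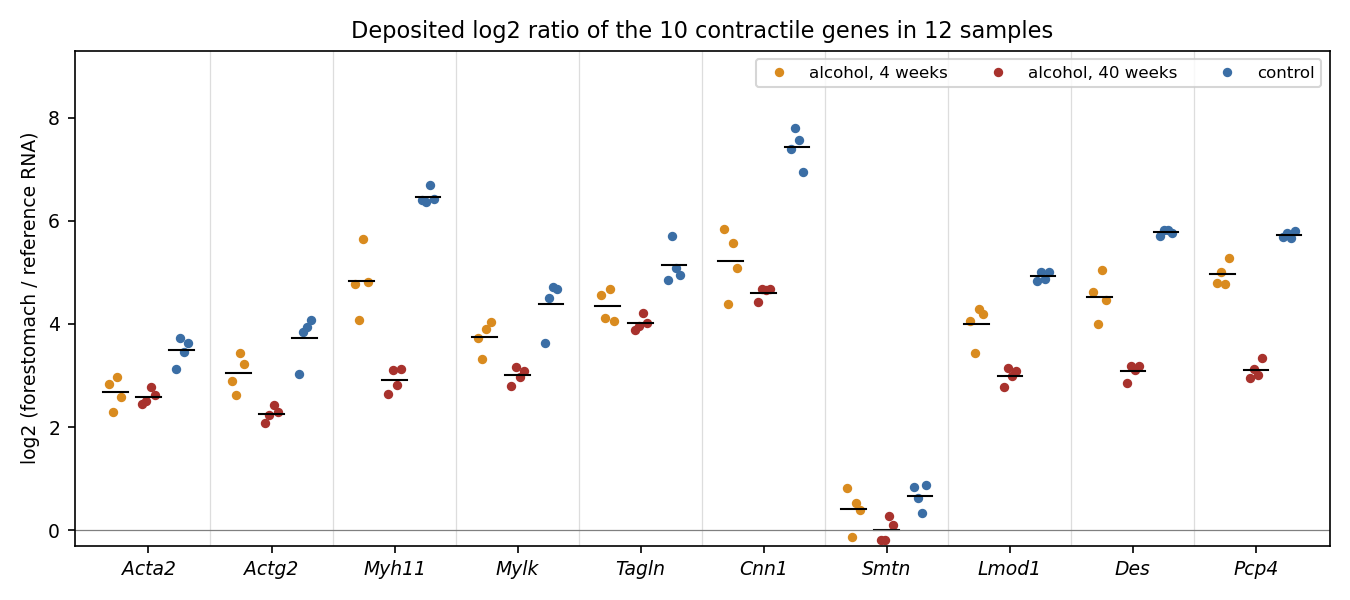
Deposited log2 ratio of forestomach to reference RNA (vertical axis) for each gene, with a point per sample and a bar at the group mean, for 4 weeks of alcohol, 40 weeks of alcohol and control. Every 40-week point lies below every control point of its gene, and the 4-week points of Actg2, Mylk and Smtn reach into the control range.

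Taken channel by channel in normalised signals of the main probes, the larger part of the 4-week difference stood in the reference RNA for 7 of the 10 genes and in the forestomach RNA for Des, Pcp4 and Smtn. A larger part in the reference RNA was not seen with the other Acta2 probes or with the dim Mylk probe. In Cy5, the forestomach channel, 0 of the 10 genes were called by limma, where calls for lower values took 0.121% of all genes, and 1 of the 10, Des, had an unadjusted p under 0.05. All 10 changes in Cy5 were below 0, from -0.76 for Des to -0.04 for Tagln, with a median of -0.18 beside -0.02 over all genes. Only Des had 4-week arrays that lay all below the controls, where 5.98% of all genes did. In Cy3, which held the same commercial RNA on all arrays, 6 of the 10 genes were called higher on the 4-week arrays, Cnn1, Myh11, Lmod1, Acta2, Actg2 and Des. Calls for higher Cy3 values took 4.67% of all genes. In 8 of the 10 genes every 4-week array was higher in normalised Cy3 signal than every control array, which 9.57% of all genes showed. Before normalisation this held for 3 of the 10, Cnn1, Myh11 and Actg2, and for 2.20% of all genes.

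The channel signals of Cnn1 differ most in this way. Its normalised log2 Cy3 signal was 13.00, 13.97, 13.20 and 13.58 on the 4-week arrays, against 11.999, 11.20, 11.07 and 11.91 on the control arrays, a difference of 1.90 ± 0.26 (limma adjusted p = 0.00418). Its normalised log2 Cy5 signal averaged 18.72 ± 0.21 on the 4-week arrays and 18.92 ± 0.31 on the control arrays (SD, n = 4 each), a difference of -0.21 ± 0.18 (limma adjusted p = 0.607). The reference channel thus held most of the fall of the Cnn1 ratio. Before any normalisation the background-subtracted Cy3 intensity of Cnn1 was 9701, 20490, 10610 and 15120 on the 4-week arrays, against 6100, 3077, 2767 and 5248 on the control arrays, with no overlap.

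Myh11 showed a difference in Cy3 of 1.21 ± 0.25 (limma adjusted p = 0.0263) and in Cy5 of -0.38 ± 0.26 (limma adjusted p = 0.504). The main Acta2 probe differed by 0.68 ± 0.12 in Cy3 (limma adjusted p = 0.0156) and by -0.05 ± 0.14 in Cy5, with a 95% interval of -0.37 to 0.27, while its other 4 probes, described with the probe values, each lay further below 0 in Cy5 and had a lower Cy3 change. Actg2 differed by 0.55 ± 0.06 in Cy3 (limma adjusted p = 0.00129) and by -0.06 ± 0.27 in Cy5, where control replicate 1 again stood lowest at 16.14, below all 4-week arrays. Lmod1 differed by 0.75 ± 0.18 in Cy3 (limma adjusted p = 0.0395) and by -0.16 ± 0.20 in Cy5. Tagln and Mylk missed the threshold in Cy3 at 0.65 ± 0.17 and 0.56 ± 0.15 (limma adjusted p = 0.0557 and 0.0562), with -0.04 and -0.05 in Cy5.

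In Des, Pcp4 and Smtn the Cy5 difference was larger in size than the Cy3 difference, and no test compared the channels. Des had log2 Cy5 signals of 14.92, 14.22, 15.12 and 14.91 on the 4-week arrays, against 15.54, 15.69, 15.28 and 15.71 on the control arrays. All 4-week values lay below all control values, and the difference was -0.76 ± 0.21, with a 95% interval of -1.23 to -0.30, a limma adjusted p of 0.128 and no call. Des also rose in Cy3, by 0.48 ± 0.12 (limma adjusted p = 0.0446). Pcp4 had -0.68 ± 0.34 in Cy5 and 0.12 ± 0.17 in Cy3, and Smtn -0.37 ± 0.27 in Cy5 and -0.09 ± 0.10 in Cy3, none of which passed the test. Pcp4 is dim in the reference, with Cy3 intensities of 63.3 to 175 on the 4-week arrays and 93.2 to 176 on the control arrays, so its ratio depends on the background correction.

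**Figure D2:**
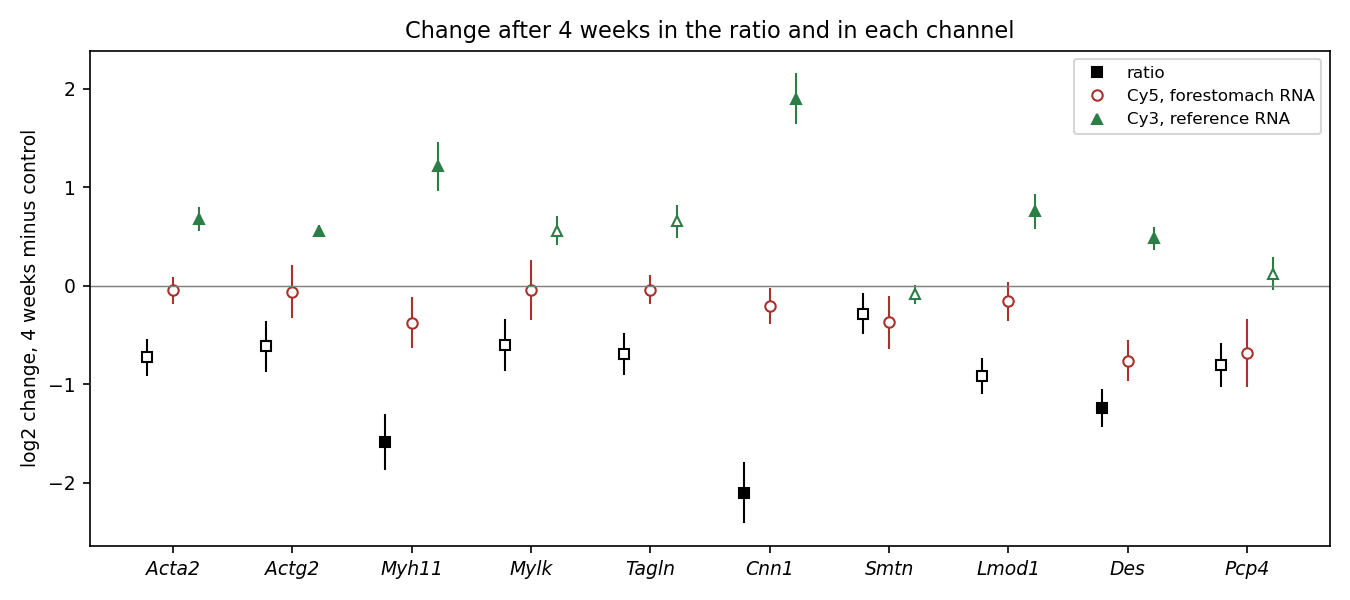
Change after 4 weeks in log2 units (vertical axis, 4-week mean minus control mean, bars ± SE, n = 4 each) shown for the ratio and for the channels, Cy5 with forestomach RNA and Cy3 with reference RNA. Filled symbols passed limma's adjusted p of 0.05, and open ones did not. The 6 filled Cy3 symbols lie above 0, while every Cy5 symbol is open.

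**Figure D3:**
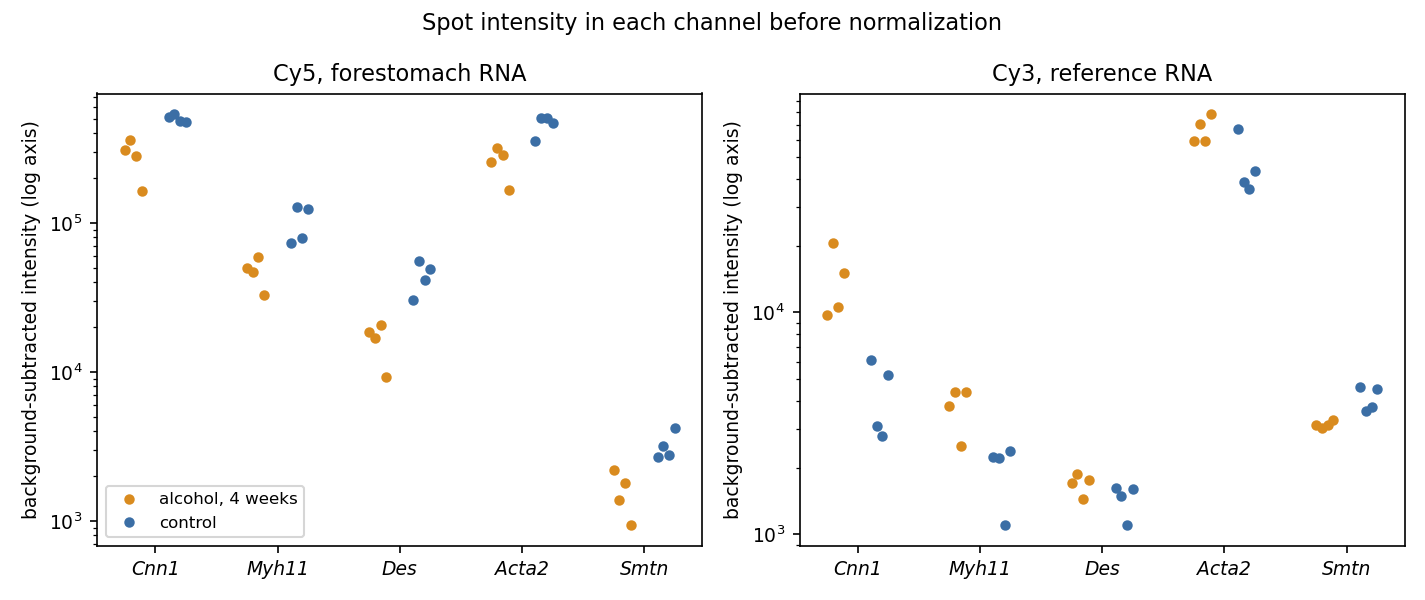
Background-subtracted spot intensity before normalisation (vertical log axes), a point per array, for 5 genes in the 4-week and control groups, with Cy5 at left and Cy3 at right. In Cy3 the 4-week points of Cnn1 and Myh11 lie above all control points, those of Smtn lie below them, and those of Des and Acta2 overlap with them.

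Before normalisation the Cy5 intensities of the genes plotted were lower on the 4-week arrays, but so was the median Cy5 intensity over all probes, at 40.1 to 104 on the 4-week arrays against 106 to 142 on the control arrays. Cy3 medians were 180 to 206 on the 4-week arrays and 219 to 254 on the control arrays, lower where Cnn1 and Myh11 were brighter. Smtn followed the array median, with Cy3 intensities of 3029 to 3290 on the 4-week arrays and 3604 to 4625 on the control arrays.

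After 40 weeks of 15% alcohol the deposited log2 ratios of all 10 genes were lower than in controls, all 10 were called, and no 40-week sample reached the lowest control for any of them. For the 40-week arrays only the authors' deposited log2 ratios were used, so Cy5 and Cy3 could not be looked at apart. The median change was -1.70, beside -0.09 over all genes. Calls for lower values were common in this comparison, at 23.9% of all genes, and 23.8% of all genes had every 40-week sample below every control. The deposited ratios of the 40-week samples were also more tightly spread over all probes, with an SD of 1.02 to 1.08, against 1.48 to 1.73 for the 4-week and control samples.

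Myh11 had the widest gap, with log2 ratios of 2.64, 3.11, 2.82 and 3.12 after 40 weeks, against 6.40, 6.37, 6.70 and 6.42 in controls. That is 11.7-fold lower (-3.55 ± 0.26, limma adjusted p = 2.09e-06), and the 4-week samples lay between, at 4.78, 4.08, 5.65 and 4.81. Des had 2.86, 3.19, 3.1 and 3.18 after 40 weeks, against 5.70, 5.82, 5.83 and 5.77 in controls. It was 6.49-fold lower (-2.70 ± 0.19, limma adjusted p = 1.57e-06). Pcp4 had 2.95, 3.14, 3.02 and 3.34 after 40 weeks, against 5.68, 5.76, 5.66 and 5.80 in controls. It was 6.13-fold lower (-2.62 ± 0.14, limma adjusted p = 7.91e-07). Both groups were narrow for these 2 genes compared with the distance between them.

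Cnn1 was 7.07-fold lower (-2.82 ± 0.28), with 4.42, 4.68, 4.65 and 4.68 after 40 weeks, against 7.39, 7.81, 7.57 and 6.95 in controls. Lmod1 was 3.82-fold lower (-1.93 ± 0.18), Actg2 2.77-fold (-1.47 ± 0.24) and Mylk 2.60-fold (-1.38 ± 0.24). Tagln was 2.19-fold lower (-1.13 ± 0.20), Acta2 1.87-fold (-0.90 ± 0.17) and Smtn 1.59-fold (-0.67 ± 0.20). The limma adjusted p-values of these 7 genes ran from 7.29e-06 for Lmod1 to 0.0206 for Smtn. Smtn was the weakest: its call was lost without control replicate 4 or without 40-week replicate 1 or 2. The 40-week replicates 3 and 4 stand apart from all other samples in sex-chromosome genes. At 40 weeks over control Xist was higher by 1.56 (limma adjusted p = 0.0124), and Ddx3y and Eif2s3y had -2.48 and -4.47 without a call. Without replicates 3 and 4 all 10 genes were still called, at -3.60 for Myh11 to -0.85 for Smtn.

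The 40-week result depended on how the ratios were scaled. When each sample's log2 ratios were brought to the same spread over probes, 4 of the 10 genes were called lower and 1 was called higher, where lower calls took 19.8% and higher calls 18.6% of all genes. The median change of the 10 was then -0.37, beside -0.05 over all genes. Quantile normalisation gave the same 4 lower and 1 higher, with lower calls at 20.6% and higher calls at 17.4% of all genes. The genes lower under both were Myh11, Des, Pcp4 and Smtn. Myh11 had scaled log2 ratios of 3.33, 4.13, 3.91 and 3.93 after 40 weeks, against 5.66, 5.92, 5.27 and 5.62 in controls, still with no overlap, and its change was -1.79 ± 0.26 (limma adjusted p = 0.000385). Des changed by -0.98 ± 0.23, Pcp4 by -0.90 ± 0.20 and Smtn by -0.60 ± 0.21 (limma adjusted p = 0.00594, 0.00414 and 0.0358).

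The main Tagln probe turned round under the same scaling. Its scaled log2 ratios were 4.91, 5.28, 5.89 and 5.07 after 40 weeks, against 4.28, 5.29, 4.00 and 4.33 in controls, so that 1 control, replicate 2, lay within the 40-week range. The change was 0.81 ± 0.29 (limma adjusted p = 0.0404) and, after quantile normalisation, 1.01 ± 0.19 (limma adjusted p = 0.00189). The second Tagln probe, A_52_P517683, did not turn: its scaled log2 ratio averaged 3.22 ± 0.30 after 40 weeks and 3.55 ± 0.36 in controls (SD, n = 4 each). The main probes of Acta2 and Mylk also changed sign, to 0.37 ± 0.22 and 0.15 ± 0.23, without a call. The other Acta2 probes were divided, with scaled log2 ratios of 1.89 ± 0.36 after 40 weeks and 2.30 ± 0.50 in controls for A_51_P450957, 5.27 ± 0.22 and 5.33 ± 0.55 for A_52_P239556, 6.52 ± 0.34 and 5.03 ± 0.47 for A_52_P210078, and 4.84 ± 0.19 and 2.64 ± 1.12 for the dim A_52_P644232 (SD, n = 4 each, 40 weeks and control). Cnn1, Lmod1 and Actg2 kept a negative sign at -0.40 ± 0.35, -0.35 ± 0.23 and -0.27 ± 0.23, without a call. A lower ratio of Myh11, Des, Pcp4 and Smtn after 40 weeks was thus called under each of these 3 scalings, and a lower ratio of the other 6 genes only with the ratios as deposited.

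**Figure D4:**
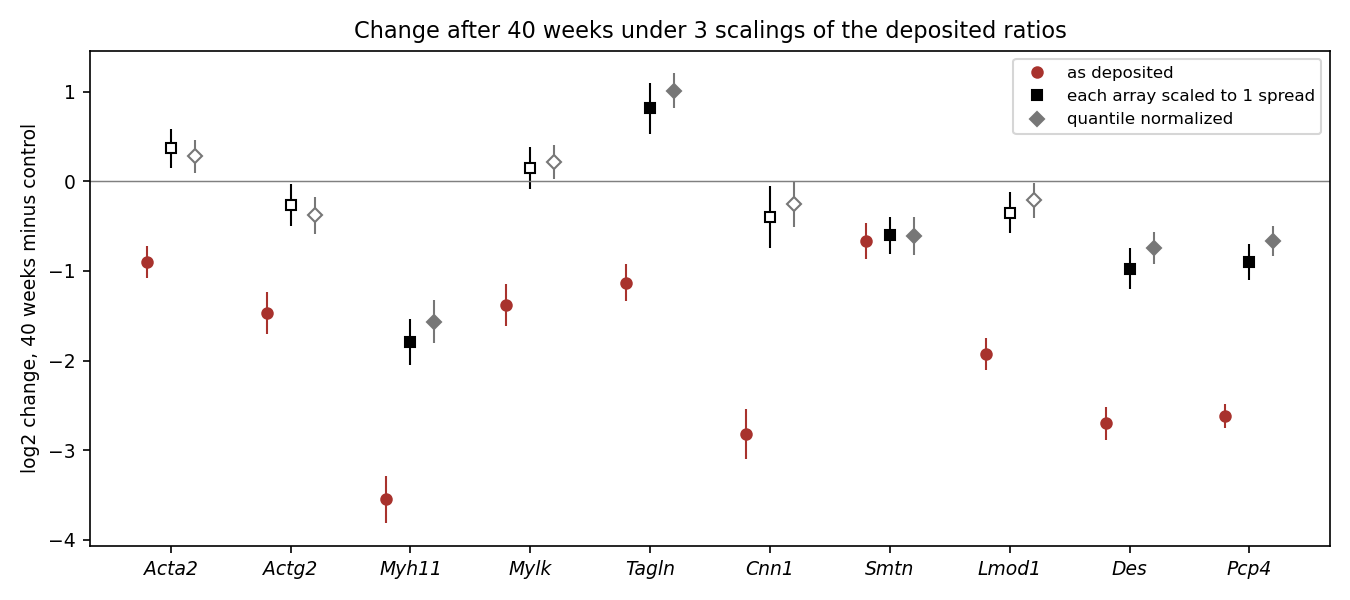
Change after 40 weeks in log2 units (vertical axis, 40-week mean minus control mean, bars ± SE, n = 4 each) with the ratios as deposited, with each array scaled to 1 spread and after quantile normalisation. Filled symbols passed limma's adjusted p of 0.05. Myh11, Des, Pcp4 and Smtn lie below 0 with filled symbols in all 3, and Tagln has filled symbols on both sides of 0.

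Set directly against the 4-week samples in the deposited ratios, the 40-week samples were lower in 6 of the 10 genes by limma, Pcp4, Des, Myh11, Lmod1, Actg2 and Mylk. Calls for lower values took 23.2% of all genes there, and the same 6 genes had groups that did not overlap, as had 25.3% of all genes. Pcp4 differed by -1.86 ± 0.14 (limma adjusted p = 1e-05), Myh11 by -1.91 ± 0.26 (0.000255) and Des by -1.45 ± 0.19 (0.000157). Acta2 differed by -0.09 ± 0.17, with a 95% interval of -0.47 to 0.29, and Tagln by -0.34 ± 0.20. With each sample at 1 spread 0 of the 10 genes were called lower by limma, and Acta2, Tagln, Cnn1 and Mylk were called higher after 40 weeks than after 4, where lower calls took 20.8% and higher calls 20.1% of all genes. After quantile normalisation 2 were called lower, Myh11 (-0.75, limma adjusted p = 0.0261) and Pcp4 (-0.62, limma adjusted p = 0.0109), and 3 higher, Acta2, Tagln and Cnn1, with 22.4% and 17.8% of all genes. Both the alcohol percentage and the time differ between these groups. In the fit of the deposited ratios, where the 3 groups share an estimate of the spread, 7 of the 10 genes were called lower at 4 weeks over control, where such calls took 3.62% of all genes. They were Cnn1, Myh11, Des, Lmod1, Acta2, Tagln and Pcp4. That shared spread includes the 40-week samples, where SDs of the 10 genes were 0.123 to 0.236, against 0.236 to 0.642 at 4 weeks. Without 40-week replicates 3 and 4 the calls of Acta2 and Tagln were lost (limma adjusted p = 0.0523 and 0.0847). Fewer of the 10 genes were called when only the groups compared were fitted.

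Genes with several probes were not uniform. Of 5 Acta2 probes, the main one was spotted 10 times per array, with an SD between spots of 0.029 to 0.238 on the log2 scale. In the deposited ratios at 40 weeks over control it changed by -0.90, the intron-crossing probe A_51_P450957 shown above by -1.22 ± 0.26, A_52_P210078 by -0.84 ± 0.17 and A_52_P239556 by -2.11 ± 0.18. The fifth Acta2 probe, A_52_P644232, was dim, with mean Cy5 intensities of 33.7 at 4 weeks and 154 in controls, and went the other way by 0.67 ± 0.48, with no call. At 4 weeks the intron-crossing Acta2 probe changed by -0.24 ± 0.28 in the ratio and, by channel, -0.28 ± 0.25 in Cy5 and -0.03 ± 0.15 in Cy3, so the higher Cy3 signal of the main probe was not seen there. A_52_P210078 changed by -0.31 ± 0.18 in Cy5 and 0.31 ± 0.08 in Cy3, and A_52_P239556 by -0.53 ± 0.21 in Cy5 and 0.30 ± 0.10 in Cy3. The dim A_52_P644232 changed by -0.77 ± 0.47 in Cy5 and 0.05 ± 0.12 in Cy3. In each of these 4 the Cy5 change was no smaller in size than the Cy3 change, unlike in the main probe, so the share of each channel differed between Acta2 probes. Of these 4, 0 were called in either channel by limma, where A_52_P239556 alone had an unadjusted p under 0.05 in Cy5 (0.0313) and it and A_52_P210078 in Cy3 (0.0131 and 0.0042). The second Tagln probe, A_52_P517683, changed by -1.64 ± 0.22 at 40 weeks, further than the main Tagln probe. For Mylk the probe A_52_P575217 changed by -1.41 ± 0.21, close to the main probe, while the dim probe A_51_P272407, with mean Cy5 intensities of 24.5 at 4 weeks and 56.2 in controls, changed by -0.18 ± 0.15.

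Other genes of the smooth muscle cell were read from 4 lists. Their 40-week values, and those of the marker lists further on, come from the deposited ratios only. They were not read under the other scalings, which took the contractile genes called lower from 10 to 4, so their size at 40 weeks is uncertain. Among 14 measured genes of thin filaments and myosin regulation, 1 was called lower and 0 higher in the 4-week ratio by limma, and 6 lower and 2 higher at 40 weeks over control. Over all genes such calls took 0.806% lower and 0.261% higher at 4 weeks, and 23.9% lower and 18.6% higher at 40 weeks. Myl9, a regulatory light chain of smooth muscle myosin, was the one called at 4 weeks, with -1.55 ± 0.26 in the ratio (limma adjusted p = 0.0391) beside -0.15 ± 0.18 in Cy5 and 1.40 ± 0.17 in Cy3 (limma adjusted p = 0.00243). Ppp1r14a, an inhibitor of myosin phosphatase, had -0.97 ± 0.20 at 4 weeks without a call and fell by 2.61 ± 0.19 at 40 weeks. By channel Ppp1r14a had -0.27 ± 0.25 in Cy5 and 0.705 ± 0.221 in Cy3 at 4 weeks, neither called. Myl6, the essential light chain, had -0.63 in the 4-week ratio and -0.01 in Cy5, and Tpm1, a tropomyosin, -0.66 and -0.55, none of them called. In Cy3 Myl6 was called higher by 0.63 ± 0.11 (limma adjusted p = 0.0128), and Tpm1 had 0.10 ± 0.06 without a call. Both were called lower at 40 weeks, at -0.74 ± 0.14 and -0.76 ± 0.17 (limma adjusted p = 0.00148 and 0.00447).

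Among 20 genes of adhesion, dense plaques and cytoskeleton, 2 were called lower in the 4-week ratio, where 0.806% of all genes were, and 7 lower and 2 higher at 40 weeks, where 23.9% and 18.6% of all genes were. The 2 were Pdlim3, a protein of the actin cytoskeleton (-1.31 ± 0.15, limma adjusted p = 0.0349), and Fhl1, a LIM-domain protein of muscle (-1.24 ± 0.20, limma adjusted p = 0.0386). In Cy5 they had -0.48 ± 0.13 and -0.91 ± 0.20 (limma adjusted p = 0.127 and 0.0846), and in Cy3 0.82 ± 0.13 and 0.33 ± 0.08 (limma adjusted p = 0.00809 and 0.0482). Synm, the intermediate filament protein synemin, a partner of desmin, had -1.08 ± 0.22 in the ratio, and Synpo2, an actin-binding protein, -0.81 ± 0.20, neither called. In Cy5 Synm had -0.82 ± 0.26 and Synpo2 -0.07 ± 0.22, neither called. In Cy3 Synm had 0.25 ± 0.09 without a call, and Synpo2 was called higher by 0.735 ± 0.138 (limma adjusted p = 0.0174). Synpo2 fell by 2.40 ± 0.18 and Pdlim3 by 2.72 ± 0.18 at 40 weeks in the deposited ratios.

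Among 19 genes of excitation and relaxation, 0 were called in the 4-week ratio by limma, while at 40 weeks 12 were called lower and 0 higher, beside 23.9% and 18.6% of all genes. In the 4-week ratio Mrvi1, a target of the cGMP pathway, had -0.57 ± 0.15, the phosphodiesterase gene Pde5a -0.83 ± 0.23, the adrenergic receptor gene Adra1a -0.37 ± 0.10 and the IP3 receptor gene Itpr1 -0.62 ± 0.19. In the deposited ratios at 40 weeks Gucy1b3, a subunit of the nitric oxide receptor, fell by 2.94 ± 0.25 (limma adjusted p = 4.23e-06). Kcnmb1, a subunit of a potassium channel, fell there by 1.96 ± 0.18 (limma adjusted p = 8.49e-06). Mrvi1, Pde5a and Adra1a were called lower there too, at -1.58, -1.98 and -0.63, while Itpr1 had -0.17 ± 0.18 without a call.

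Among 19 transcriptional regulators of smooth muscle, 1 was called lower in the 4-week ratio, where 0.806% of all genes were, and 7 lower and 2 higher at 40 weeks, where 23.9% and 18.6% of all genes were. The 1 was Myocd, which encodes myocardin, the partner of serum response factor at CArG boxes. Its ratio changed by -1.14 ± 0.21 (limma adjusted p = 0.0437), with -1.09 ± 0.28 in Cy5 (limma adjusted p = 0.116) and 0.05 ± 0.16 in Cy3. In the deposited ratios Myocd fell by 2.57 ± 0.17 at 40 weeks (limma adjusted p = 1.45e-06). Barx1, a homeobox factor of the stomach mesenchyme, fell there by 2.45 ± 0.21 (limma adjusted p = 4.92e-06). At 40 weeks Foxf2 had -0.76 ± 0.22 (limma adjusted p = 0.0166), and Prrx1 had 0.04 ± 0.30 without a call. Barx1, Foxf2 and Prrx1 had -0.87 ± 0.19, -0.65 ± 0.23 and -0.68 ± 0.33 in the 4-week ratio, without a call. In Cy5 they had -0.26, -0.73 and -0.81, and in Cy3 0.60, -0.08 and -0.135, none called.

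For markers of squamous epithelium and of mural cells, as for the contractile genes, the groups did not overlap, with 40 weeks lowest and control highest. The excitation and relaxation list did the same, at 2.72 to 3.04 at 4 weeks, 1.98 to 2.24 at 40 weeks and 3.06 to 3.45 in controls. In the other marker lists the 4-week and control ranges overlapped. Their median changes at 40 weeks over control were negative too, so a lower level at 40 weeks was not particular to these lists. The mean deposited log2 ratio of the 10 genes was 3.31 to 4.09 at 4 weeks, 2.67 to 2.95 at 40 weeks and 4.55 to 4.92 in controls. For 16 markers of squamous epithelium it was 3.75 to 4.52 at 4 weeks, 2.72 to 3.15 at 40 weeks and 5.16 to 5.56 in controls, in the same order. Of these 16 genes, 6 were called lower in the 4-week ratio, 13 were called higher in Cy3 on the 4-week arrays, and 16 were called lower at 40 weeks. Over all genes these calls took 0.806%, 4.67% and 23.9%. Krt5, a keratin of basal cells, had -0.87 ± 0.16 in the 4-week ratio, which divided into 0.19 ± 0.17 in Cy5 and 1.07 ± 0.14 in Cy3. The part that a shift shared by both lists has in the contractile result was not tested. For 9 markers of pericytes and vascular mural cells the range was 3.18 to 3.62 at 4 weeks, 2.54 to 2.84 at 40 weeks and 3.82 to 4.13 in controls. Single mural markers at 40 weeks over control ran from -2.92 to 0.55, the highest being Pdgfrb, with 6 of 9 called lower, beside 23.9% of all genes. Of 12 fibroblast markers, 0 were called in the 4-week ratio by limma and 4 were called lower at 40 weeks, beside 23.9% of all genes. The median 4-week ratio change was -1.01 for 11 adipocyte markers, -0.14 for 12 of endothelium, -0.11 for 6 of interstitial cells of Cajal, 0.18 for 9 of enteric neurons and glia and 0.14 for 13 of striated muscle. At 40 weeks 3, 8, 3 and 5 of the first 4 of these lists were called lower and 2, 1, 0 and 0 higher. Over all genes lower calls took 23.9% and higher calls 18.6% there.

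Striated muscle also carries Des and some of the other genes. Its 13 markers had summed Cy5 intensities of 12844 to 21325 on the 4-week arrays and 21159 to 43801 on the control arrays, and mean log2 ratios of 0.37 to 1.46 at 4 weeks, 0.15 to 0.67 at 40 weeks and 0.34 to 1.08 in controls. Of these, 0 were called in the 4-week ratio by limma and 4 lower and 1 higher at 40 weeks, where 23.9% and 18.6% of all genes were. On 3 arrays other organs' transcripts were prominent. The summed Cy5 intensity of 14 glandular stomach markers was 2128513 on 4-week replicate 2 and 838 to 5120 on the other 4-week arrays, and it was 1572217 on control replicate 4 and 1353 to 22714 on the other controls. That of 13 pancreas markers was 1339 to 501551 on the 4-week arrays and 2973676 on control replicate 3, against 4468 to 528745 on the other controls. No list was at 0 as a whole, and on single arrays up to 5 pancreas markers and up to 2 glandular stomach markers were not above background. The 4-week array with glandular stomach transcripts is the one with the lowest contractile ratios in 8 of the 10 genes. Without these 3 arrays, only control replicates 1 and 2 and 4-week replicates 1, 3 and 4 were left. In the 4-week ratio 0 of the 10 genes were then called by limma, with changes of -1.99 to -0.14. In Cy3 Cnn1 and Actg2 were still called. In the deposited ratios Cnn1, Des, Myh11, Lmod1 and Pcp4 were still called lower at 4 weeks (limma adjusted p = 0.00857 to 0.0339). That fit shares its spread with the 40-week samples, which were more tightly spread. All 10 genes were still called at 40 weeks.

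**Figure D5:**
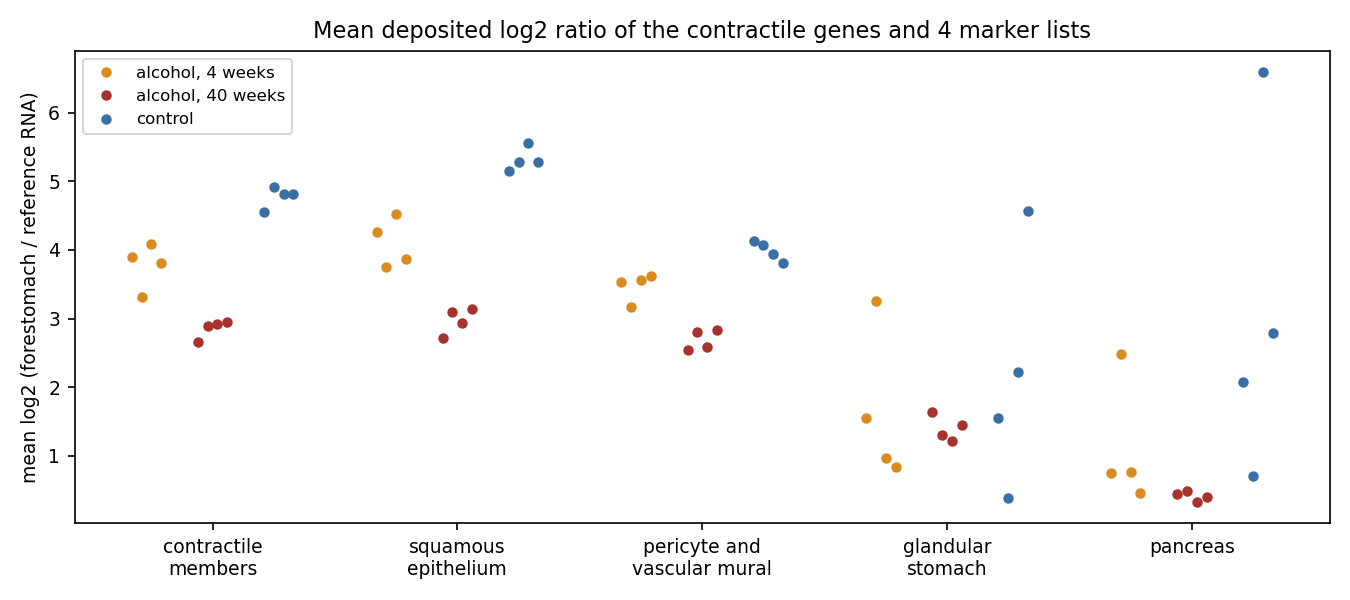
Mean deposited log2 ratio (vertical axis) of the 10 contractile genes and of 4 lists of markers, a point per sample, for 4 weeks of alcohol, 40 weeks of alcohol and control. In the contractile, squamous and mural lists the groups do not overlap, with 40 weeks lowest and control highest. Single 4-week and control arrays stand high for the glandular stomach and pancreas.

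The genes whose pattern over the 12 samples was most like the mean of the 10 contractile genes were Gm94, Sprr1a, Jph2, Mapk13 and Aldh3b2, by Pearson correlation of deposited log2 ratios (r = 0.995, 0.994, 0.992, 0.991 and 0.990). The points are the same 12 arrays in 3 groups for each gene, so the correlation mostly describes the order of the groups. Jph2 encodes a junctional membrane protein of muscle, and Sprr1a a protein of the cornified envelope of squamous cells. Within groups, 4-week replicate 2 was the lowest 4-week sample in 8 of the 10 genes and 40-week replicate 1 the lowest 40-week sample in 10 of 10. Pcp4 was among the exceptions at 4 weeks, where the lowest sample was replicate 3 at 4.78.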

How the data were processed

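The members, the gene lists and the tests were chosen with earlier results of these data known. Mean spot and local background intensity on a linear scale, processed intensity with log10 ratios, and flags of 0 or 1 (other values) were taken as deposited from the scanner output of 8 arrays, control and 4-week, per the file headers. The headers name Feature Extraction version 10.7.3.1, and the submitters' processing notes name 9.1. The deposited table of the authors holds log2 ratios of Cy5 over Cy3 for all 12 samples. Its scale and direction were found by setting it against the scanner ratios (r = 0.882 to 0.946 per array), and how the 40-week columns were made is not given in the sources used here. Their scanner files were not analysed here.

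Each array held 45018 spots, 1639 of them controls, and 41174 other probes. Of these, 26918 were named through an accession, 5082 through their symbol and 817 through a synonym in the RefSeq gene table, 1440 were left with the files' own name and 6917 with none. Signals were corrected with normexp (offset 50) and normalised by loess within arrays, and the channels by Aquantile. A probe was kept if the scanner flagged Cy5 as well above background on no fewer than 3 of 4 arrays in the 4-week or the control group (30450 probes), and the brightest kept probe stood for each of 20720 genes. Between 64.1% and 78.3% of probes per array passed this flag, and precision is limited by how few arrays there are. Groups were compared with limma 3.58.1 (lmFit, eBayes) in R 4.3.3, on 8 arrays for the ratio and each channel and on all 12 samples for the table, with Benjamini-Hochberg adjustment over all genes. On simulated data with 20720 genes, 65% of changes of 1 and 94% of changes of 2 on the log2 scale were recovered in the ratio, 52% and 91% in Cy5, and 51% and 91% at 40 weeks. In it 100 genes changed at each size, with independent normal noise. At 40 weeks 8820 genes were called, and the narrower spread of those samples was not simulated, so these shares may not hold for that comparison. Alternatives covered background, centring, scaling, filters, probes, blocks and left-out arrays. Named genes outside the 10 are, from each companion list, at most 4 with the smallest adjusted p in the 4-week ratio and 2 at 40 weeks, the first genes of marker lists, and the 5 most like the mean of the 10.

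Replicate numbers did not pair samples: deviations of same-numbered control and 4-week arrays correlated at -0.435 to 0.414. The sequence of the Actg2 probe is not reported here.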

Additional observations from a re-analysis of the deposited data

Results flagged for a closer look

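In 90 groups of 4 values of the contractile genes, a highest or lowest value stood far from the other 3 by Dixon's test in 7, where chance alone flags about 1 group in 20. In the deposited log2 ratios Cnn1 was 4.42 in 40-week replicate 1 and 4.65 to 4.68 in the other 40-week samples. Myh11 was high in control replicate 3 at 6.70, the others lying at 6.37 to 6.42, and in the scanner log2 ratios it was 6.61, the others lying at 6.30 to 6.34. In the Cy5 log2 signal Lmod1 was low in control replicate 3, the array with pancreas transcripts, at 15.22 against 15.81 to 15.89 in the other controls. Smtn was low in Cy5 in 4-week replicate 2, the array with glandular stomach transcripts, at 10.82 against 11.73 to 11.91. Mylk was high in Cy5 in 4-week replicate 4, the array with the lowest median Cy5 intensity, at 16.66 against 15.82 to 15.89. In the Cy3 log2 signal control replicate 1 stood high for Acta2 at 15.52, the others lying at 15.00 to 15.05. The part of other organs' transcripts or of dim arrays in these values was not tested.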

How the results depend on the processing

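At 4 weeks over control, the ratio gave 3 members and 221 genes called. Without background correction it gave 5 and 546, with processed signals 5 and 668, with a normexp offset of 16 it gave 133 genes and with array weights 443. Median centring, scaling to 1 spread, dropping the 3 arrays that held other organs' transcripts and the replicate block each gave 0 members and 0 genes by limma. Leaving out each array in turn gave 0 to 2 members and 0 to 52 genes. In Cy5, 93 genes were called, and 7 with 75th percentile centring, 153 with no filter on dim probes, 0 without the 3 arrays, 0 with the replicate block and 0 to 8 without single arrays. Members with the opposite sign in Cy5, none called, were Actg2 (0.33) and Mylk (0.34) without the 3 arrays, and, without single arrays, Acta2 (-0.10 to 0.051 over all such fits), Actg2 (-0.30 to 0.072), Tagln (-0.10 to 0.051) and Mylk (-0.33 to 0.12). In Cy3, with 6 members and 1212 genes, no background correction gave 2022 genes, 75th percentile centring 469, the 3 arrays left out 2 members and 203 genes with Smtn at 0.036, the replicate block 756 genes, and single arrays left out 2 to 7 members and 434 to 1722 genes.

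In the deposited ratios at 4 weeks over control (7 members, 1231 genes), scaling to 1 spread gave 3 and 577, quantile normalisation 1 and 181, fitting only the groups compared 2 and 143, no filter 799 genes, leaving out 40-week replicates 3 and 4 gave 557, leaving out the 3 arrays 2485, and single samples left out 5 to 9 members and 723 to 1392 genes. At 40 weeks over control (10 members, 8820 genes), scaling and quantile normalisation gave 5 members each, with Acta2 at 0.37 and 0.28, Tagln at 0.81 and 1.01 and Mylk at 0.15 and 0.21, and leaving out 40-week replicates 3 and 4 gave 5051 genes, while single samples left out gave 9 to 10 members. At 40 weeks over 4 weeks (6 members, 8604 genes), scaling to 1 spread turned Acta2 to 1.10, Actg2 to 0.35, Tagln to 1.56, Cnn1 to 1.59, Des to 0.16, Lmod1 to 0.51 and Mylk to 0.73. Quantile normalisation turned Acta2 to 0.86, Actg2 to 0.055, Tagln to 1.24, Cnn1 to 1.04, Lmod1 to 0.21 and Mylk to 0.47. Acta2 ran from -0.22 to 0.015 as single samples were left out, above 0 without 4-week replicate 3, 4667 genes were called without 40-week replicates 3 and 4 and 13092 with each probe on its own, and single samples left out gave 4 to 8 members. The causes of these differences were not tested. Replicate numbers share no stated source, so the block is no paired design.

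The limits are the slide that goes with the group at 4 weeks, the missing second channel and the narrower spread at 40 weeks, 4 samples per group and reference signals that differ between groups.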
